A study of Saccharomyces cerevisiae with 22 samples.

Results

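The 50 genes described here encode cytosolic aminoacyl-tRNA synthetases (18 genes) and translation factors (32 genes) of the budding yeast Saccharomyces cerevisiae. They were chosen by their symbol in the array's annotation, and each had 1 probe set of its own among the 5449 genes measured. The factors comprised 4 genes for start codon selection and subunit joining, 3 subunits of eIF2, 5 subunits of eIF2B, 6 subunits of eIF3, 6 genes for cap binding and mRNA recruitment, 2 eIF4E-binding repressors, 4 elongation factor genes and 2 termination factor genes.

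Aminoacyl-tRNA synthetases join each amino acid to its tRNA. Initiation factors then bring the charged initiator tRNA and the small ribosomal subunit to the capped end of an mRNA, elongation factors deliver the later charged tRNAs, and release factors end the chain at a stop codon. In yeast the genes of this machinery are known to be expressed strongly during growth in rich medium, and many transcripts for ribosomes and translation are known to decline for a time under stress.

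Cells of the strain that the labels call 4741 were grown in YPD, a rich medium, to mid-log phase at 30 °C, and their total RNA was measured on 22 Affymetrix arrays. The stressed groups were heat at 40 °C (30 and 45 min), 0.8 M KCl (30 and 45 min) and 0.66 mM hydrogen peroxide given without an earlier stress, called naive here (15, 30, 45 and 90 min). Other cells spent 45 min in heat or in KCl and were then moved to 0.66 mM peroxide (15, 30, 45 and 90 min; heat-primed and osmotic-primed) or to rich medium (15 and 45 min). The reference was a pair of arrays of untreated cells (a and b). Each stress and time had 1 array, so the spread within a stress is the change between its times plus noise. The labels do not say that the untreated pair came from separate cultures, so p-values rest on the spread among the arrays alone.

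The deposited values were log2 signals, in which 1 unit is a 2-fold difference. Array medians lay between 10.16 and 10.22, and a background of 4.62 was passed by 97.4% to 99.0% of genes. All 50 genes were far above it, from 9.17 to 14.2. Between the untreated arrays the 50 genes differed with an SD of 0.0967, and the largest difference was 0.22 for SUI1. The 7 genes checked for the a mating type lay above background on every array, from ASG7 (7.91 to 10.46) to STE2 (12.46 to 13.33). Of 4 genes of the alpha mating type, MF(ALPHA)1 was below background (3.46 to 4.41), and MF(ALPHA)2 (4.95 to 7.45), STE3 (6.15 to 8.15) and SAG1 (8.24 to 8.84) were above it. Each array measured a whole culture, so fewer cells with a transcript and less transcript per cell cannot be told apart.

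All cases of a 2-fold fall among the 50 genes lay on the heat and KCl arrays. Relative to the mean of the untreated arrays, 22 of the 50 genes were at least 2-fold lower after 30 min of heat and 3 after 45 min, against 12.6% and 8.83% of all genes. In KCl 8 were at least 2-fold lower at 30 min and 15 at 45 min, against 12.9% and 13.9% of all genes. On the other 16 treated arrays the count was 0, where 0.184% (90 min of naive peroxide) to 6.0% (30 min) of all genes were, and on none of the 20 treated arrays was any of the 50 genes 2-fold higher. Over the 20 arrays together, 28 of the 50 genes were at least 2-fold lower somewhere, against 24.7% of all genes. For 2-fold higher the count was 0 of the 50, against 28.2% of all genes.

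**Figure D1:**
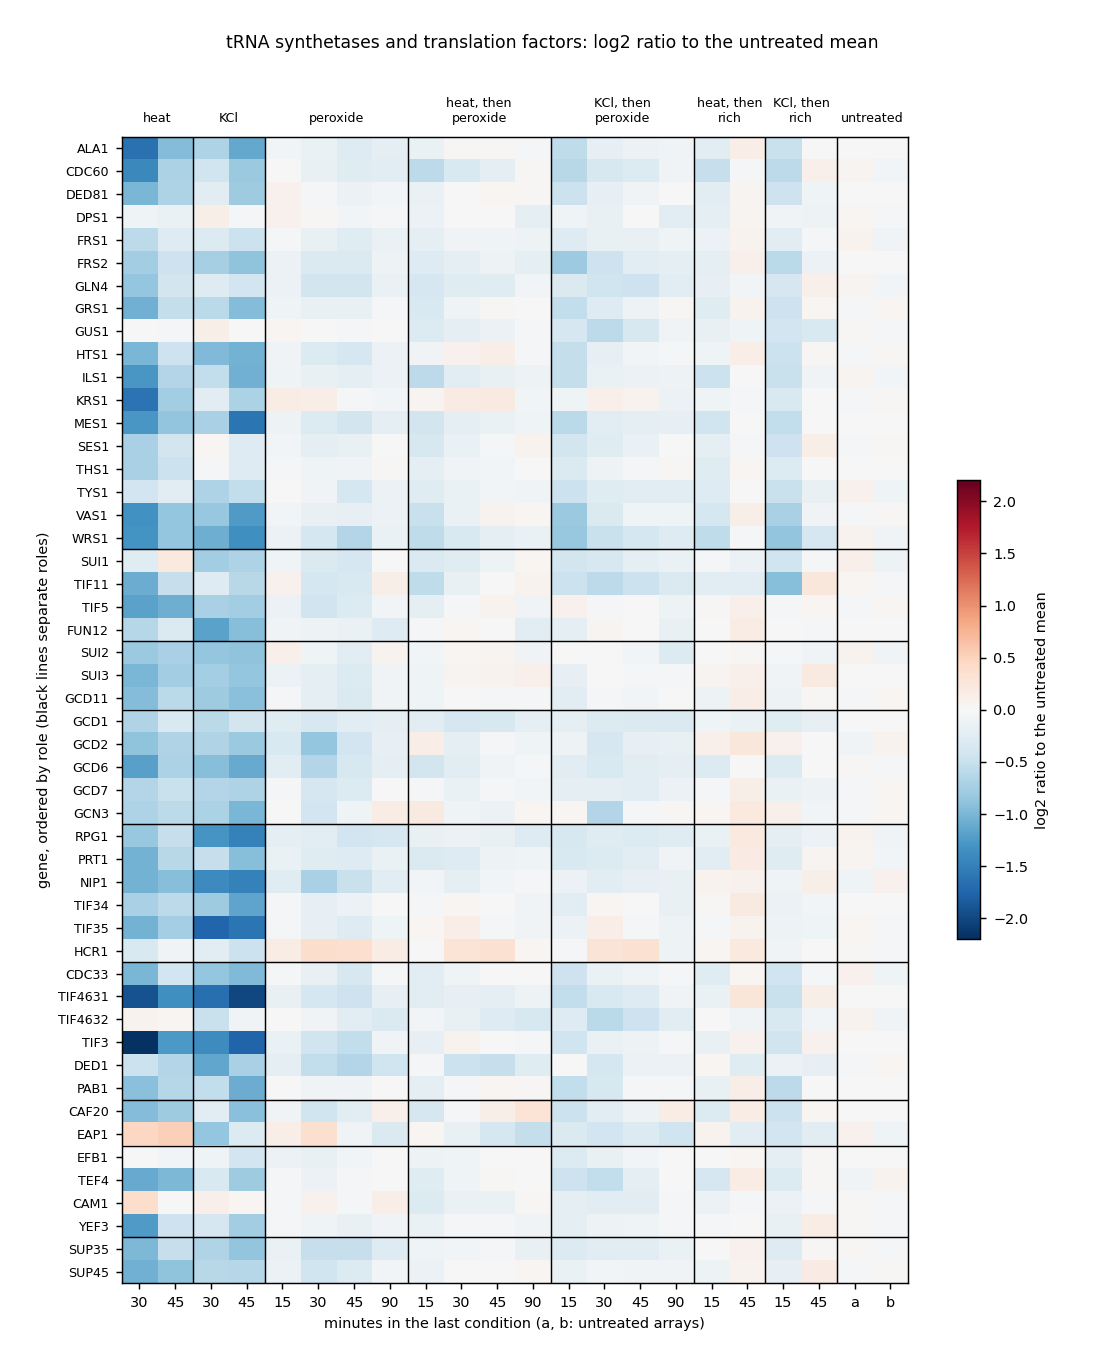
Log2 ratio to the mean of the untreated arrays (colour) for the 50 genes (vertical axis, grouped by role) on each array (horizontal axis, by stress and minutes). The heat and KCl columns are the darkest, with TIF4631 and TIF3 among the lowest values, and the columns of peroxide and of rich medium stay within 2-fold of the untreated mean.

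Heat at 40 °C was set against untreated cells at the times that the 3 single stresses share. It lowered 40 of the 50 transcripts and raised none (limma, adjusted p under 0.05 over all 5449 genes), where 22.4% of all genes fell and 27.5% rose. The median difference was -0.77 on the log2 scale for the 50 genes and 0.07 for all genes. Of the synthetases 14 of 18 fell (median difference -0.76), and of the factors 26 of 32 fell (median -0.77). The largest falls were in mRNA recruitment: TIF3, the gene of eIF4B, was 3.29-fold lower and TIF4631, the gene of the scaffold eIF4G1, was 3.11-fold lower.

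Among the synthetases, ALA1, which charges alanine tRNA, read 11.71 and 12.40 at 30 and 45 min of heat, against 13.36 and 13.33 in untreated cells (difference -1.30 ± 0.25, SE, n = 2 arrays per group, limma adjusted p = 0.0051). KRS1, for lysine, read 11.83 and 12.70 in heat, against 13.44 and 13.48 untreated (-1.19 ± 0.29, limma adjusted p = 0.0121). VAS1, for valine, read 11.82 and 12.29 in heat, against 13.13 and 13.16 untreated (-1.09 ± 0.20, limma adjusted p = 0.00429). The rule for naming the largest changes required both heat arrays to lie below both untreated arrays. For these genes the 30 min heat array was the lower. The synthetase genes WRS1 (tryptophan), MES1 (methionine), CDC60 (leucine) and ILS1 (isoleucine) fell by 1.09, 1.07, 1.06 and 0.96. The 4 synthetase genes that did not pass were FRS1, the beta subunit for phenylalanine (-0.43, limma adjusted p = 0.0552), TYS1 for tyrosine (-0.32), DPS1 for aspartate (-0.12) and GUS1 for glutamate (-0.03). GUS1 read 13.81 and 13.77 in heat, against 13.84 and 13.79 untreated, so that its groups overlapped.

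Among the initiation factors, TIF3 read 10.73 and 11.63 in heat, against 12.91 and 12.88 in untreated cells (-1.72 ± 0.28, SE, n = 2 arrays per group, limma adjusted p = 0.00279). TIF4631 read 10.46 and 11.02 in heat, against 12.37 and 12.38 untreated (-1.64 ± 0.21, limma adjusted p = 0.00108). TIF5, whose product eIF5 stimulates GTP hydrolysis by eIF2 at the start codon, read 11.46 and 11.56 in heat, against 12.59 and 12.68 untreated (-1.12 ± 0.13, limma adjusted p = 0.000803). All 3 were lower on both heat arrays than on either untreated array, as the rule for naming the largest changes required. The whole of eIF2, which carries the initiator tRNA, fell: SUI3 by 0.89 and SUI2 and GCD11 by 0.77 each. So did all 5 subunits of eIF2B, the factor that recharges eIF2 with GTP, between 0.50 for GCD1 and 0.95 for GCD6.

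In eIF3, the scaffold on the small subunit, 5 of 6 genes fell, with NIP1 (-0.99 ± 0.14) at one end and TIF34 (-0.64 ± 0.16) at the other. Its loosely bound subunit gene HCR1 did not pass (-0.21). In mRNA recruitment 5 of 6 fell: beside TIF3 and TIF4631 these were PAB1 for the poly(A)-binding protein (-0.78), CDC33 for the cap-binding eIF4E (-0.71) and DED1 for an RNA helicase (-0.55). Not passing were TIF4632 for the second eIF4G (0.06) and, in start codon selection, SUI1 for eIF1 (-0.02 ± 0.18). SUI1 read 12.79 and 13.28 in heat, against 13.17 and 12.95 untreated, which overlap.

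In elongation and termination, TEF4, which encodes a gamma subunit of the exchange factor eEF1B, read 12.40 and 12.51 in heat, against 13.43 and 13.57 in untreated cells (-1.05 ± 0.17, limma adjusted p = 0.00276). YEF3, the gene of the fungal elongation factor eEF3, also fell (-0.86 ± 0.26), at 12.80 and 13.59 in heat, against 14.07 and 14.03 untreated. EFB1, for the catalytic alpha subunit of eEF1B, did not pass (-0.03), at 14.11 and 14.06 in heat against 14.11 on both untreated arrays. Both release factor genes fell, SUP45 (eRF1) by 0.97 and SUP35 (eRF3) by 0.75.

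The number of calls in heat fell when an untreated array or the 30 min heat array was left out. Each such fit leaves 1 array in a group, which lowers the precision for every gene. Why the count fell was not tested. The median ratio of the 50 genes to untreated cells was -0.95 on the 30 min heat array and -0.58 on the 45 min heat array. With each array left out in turn, the median difference ran from -0.95 to -0.58. With a minimum of 1.5-fold in the test limma passed 3 of the 50 genes.

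KCl at 0.8 M lowered 33 of the 50 transcripts and raised none (limma), where 26.0% of all genes fell and 30.2% rose. The median difference was -0.74 on the log2 scale for the 50 genes and 0.03 for all genes. Of the factors 24 of 32 fell (median -0.75), and of the synthetases 9 of 18 (median -0.62). The subunits of eIF3 had the lowest median of the roles with over 2 genes, -1.18, with 5 of 6 genes lower.

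TIF4631 read 10.71 and 10.37 at 30 and 45 min of KCl, against 12.37 and 12.38 in untreated cells (-1.84 ± 0.21, SE, n = 2 arrays per group, limma adjusted p = 0.000378), a 3.57-fold fall. TIF35, the g subunit of eIF3, read 11.48 and 11.62 in KCl, against 13.27 and 13.19 untreated (-1.68 ± 0.15, limma adjusted p = 0.000138). TIF3 read 11.52 and 11.13 in KCl, against 12.91 and 12.88 untreated (-1.57 ± 0.28, limma adjusted p = 0.00284). Each of them stood more than 1 log2 unit below both untreated arrays on both KCl arrays. NIP1, the c subunit of eIF3, read 11.04 and 10.95 in KCl, against 12.34 and 12.53 untreated (-1.44 ± 0.14, limma adjusted p = 0.00023). RPG1, the a subunit, read 11.62 and 11.43 in KCl, against 12.99 and 12.85 untreated (-1.39 ± 0.16, limma adjusted p = 0.000448). The remaining eIF3 genes that fell were TIF34 (-0.97) and PRT1 (-0.72), and HCR1 did not pass (-0.36).

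The eIF2 genes fell by 0.80 (SUI3), 0.86 (GCD11) and 0.87 (SUI2), and the 5 eIF2B genes by between 0.50 (GCD1) and 1.02 (GCD6). In start codon selection FUN12, whose product eIF5B joins the ribosomal subunits, fell by 1.06, TIF5 by 0.74 and SUI1 by 0.72. TIF11, the gene of eIF1A, did not pass (-0.44). CDC33 and DED1 fell by 0.91 and 0.93, and TIF4632 did not pass (-0.28).

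WRS1 had the largest fall among the synthetases in KCl, at 11.42 and 11.13, against 12.57 and 12.41 in untreated cells (-1.21 ± 0.20, limma adjusted p = 0.002). MES1, VAS1 and HTS1, the last for histidine, followed with -1.16, -1.03 and -1.01. Among the 9 that did not pass were KRS1 (-0.46), THS1 for threonine (-0.17), SES1 for serine (-0.12), GUS1 (0.06) and DPS1 (0.06). KRS1 read 13.23 and 12.76 in KCl, against 13.44 and 13.48 untreated, so both KCl arrays were lower but far apart. In elongation TEF4 fell (-0.56) while YEF3 (-0.56 ± 0.26) and EFB1 (-0.26) did not pass, and in termination SUP35 fell by 0.77 and SUP45 by 0.62. Without untreated a, limma passed 21 of the 50 genes in KCl, and with a minimum of 1.5-fold in the test it passed 7.

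The heat and KCl comparisons share the untreated arrays. The 8 genes called in neither were DPS1, FRS1, GUS1, CAM1, EFB1, EAP1, HCR1 and TIF4632.

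**Figure D2:**
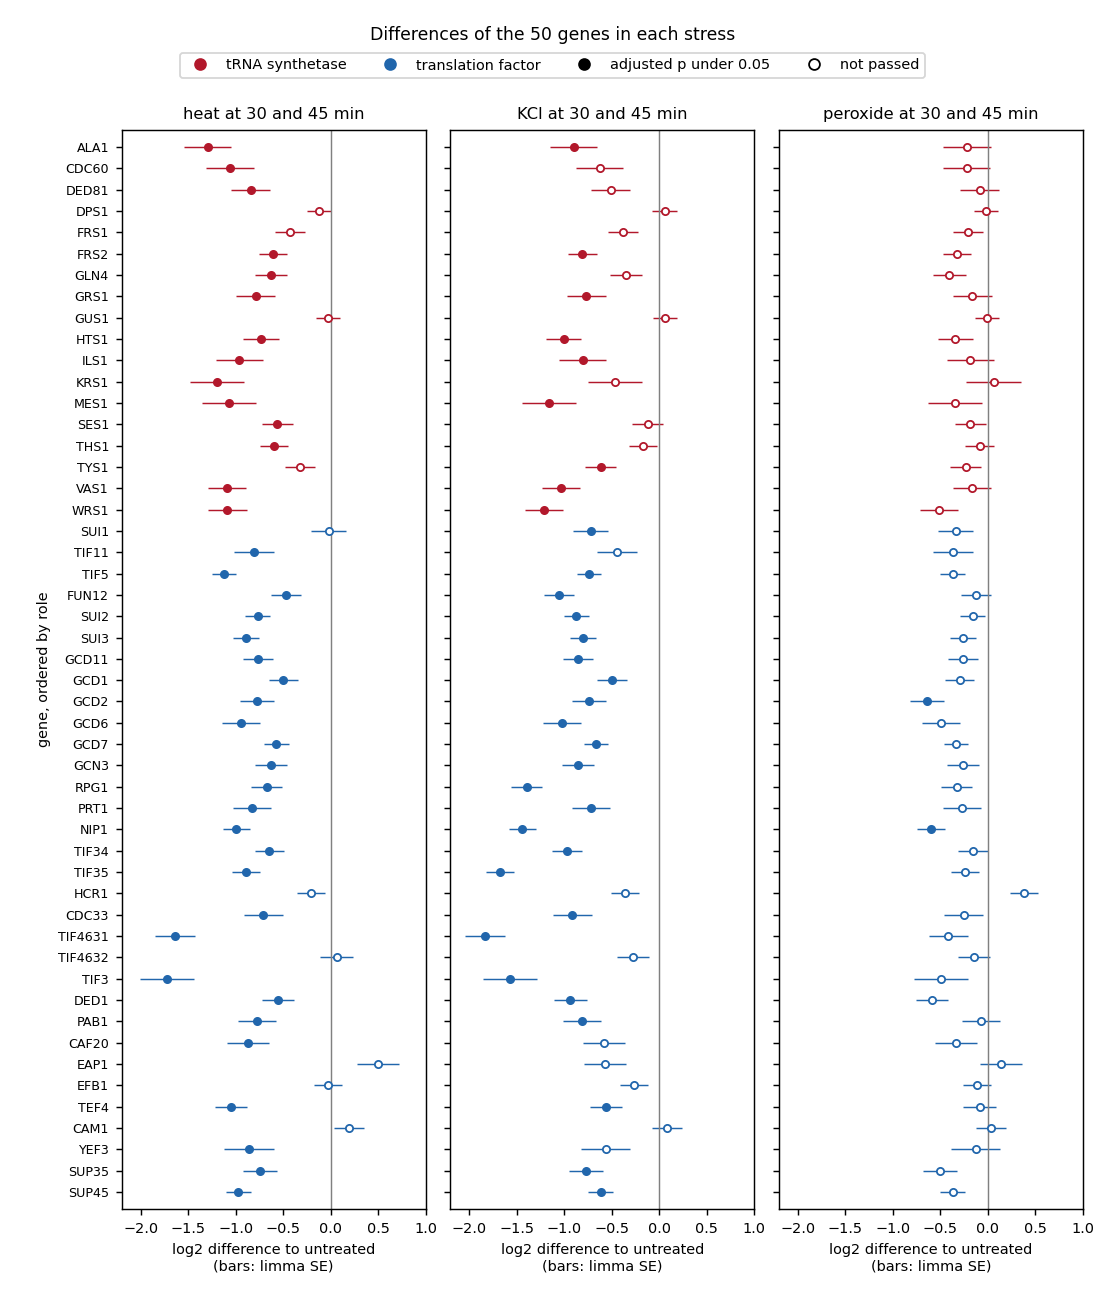
Log2 difference from untreated cells with its standard error (horizontal axis) for each of the 50 genes (vertical axis) in heat, KCl and naive peroxide at 30 and 45 min, with filled points for limma adjusted p under 0.05. Most heat and KCl points lie to the left of 0 and are filled, whereas in peroxide only GCD2 and NIP1 are filled.

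Naive peroxide at the same times lowered 2 of the 50 transcripts and raised none (limma), where 7.18% of all genes fell and 11.2% rose. They were GCD2, the delta subunit of eIF2B, and NIP1, which is 4.0% of the 50 genes and below the share of all genes that fell. The median difference over the 50 genes was -0.25 on the log2 scale, against -0.03 over all genes. Below 0 were 46 of the 50 differences, against 2887 of 5449 over all genes. GCD2 read 10.30 and 10.73 at 30 and 45 min of peroxide, against 11.08 and 11.24 in untreated cells (-0.64 ± 0.18, SE, n = 2 arrays per group, limma adjusted p = 0.047). NIP1 read 11.73 and 11.95 in peroxide, against 12.34 and 12.53 untreated (-0.60 ± 0.14, limma adjusted p = 0.0323). For both, the peroxide arrays lay below both untreated arrays, as the rule for naming the largest changes required.

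DED1 (-0.59 ± 0.17, limma adjusted p = 0.0537), WRS1 (-0.51 ± 0.20) and SUP35 (-0.51 ± 0.18) had the next largest differences in peroxide and did not pass. HCR1 had the highest difference of the 50, 0.38 ± 0.15 (limma adjusted p = 0.114), at 12.79 and 12.78 in peroxide, against 12.44 and 12.37 untreated. The 2 calls were not kept in every fit with 1 array left out. Such a fit leaves 1 array in a group, which lowers the precision for every gene. With each array left out in turn, the median difference ran from -0.28 to -0.19. With 30 and 45 min as a block limma passed NIP1 and not GCD2.

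Across its own times, naive peroxide had its lowest values in the middle of the series. The median ratio of the synthetases to untreated cells was -0.07, -0.16, -0.24 and -0.12 at 15, 30, 45 and 90 min, and that of the factors was -0.07, -0.25, -0.29 and -0.07. The lowest of the 4 arrays was at 30 min for 18 genes and at 45 min for 26, which was not counted for all genes. GCD2 stood at -0.33, -0.85, -0.43 and -0.18 relative to the untreated mean at the 4 times, and NIP1 at -0.27, -0.71, -0.48 and -0.25. With 1 array per time the order of neighbouring times has no replicate check.

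**Figure D3:**
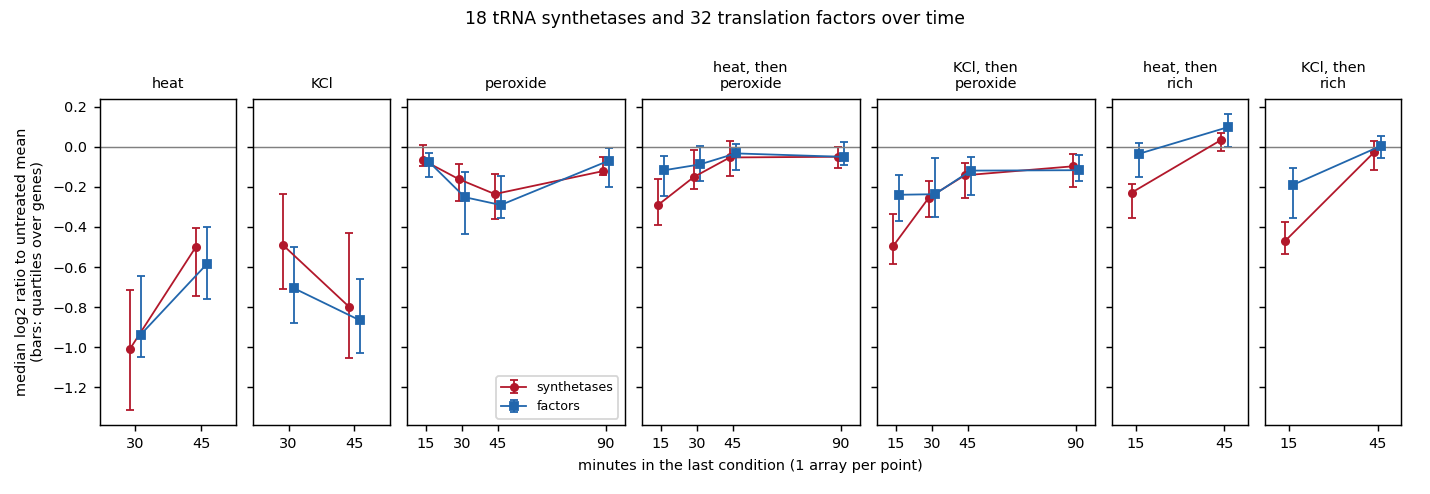
Median log2 ratio to the untreated mean (vertical axis, bars for the quartiles over genes) of the 18 synthetases and the 32 factors against minutes in the last condition (horizontal axis), with 1 array per point. Both medians lie between -1.01 and -0.49 on the heat and KCl arrays and between -0.29 and -0.07 in naive peroxide, and the synthetase median starts lower than the factor median at 15 min after every move out of heat or KCl.

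Set directly against KCl, heat left 5 of the 50 transcripts higher and none lower (limma), where 15.4% of all genes were higher and 15.2% lower. All 5 are factor genes, 15.6% of the 32 factors, which is near the share of all genes that were higher. None of the 18 synthetases passed, and a difference between the classes was not tested. TIF35 read 12.19 and 12.47 in heat, against 11.48 and 11.62 in KCl (0.78 ± 0.15, limma adjusted p = 0.00901), and RPG1 read 12.08 and 12.41 in heat, against 11.62 and 11.43 in KCl (0.72 ± 0.16, limma adjusted p = 0.0176). Both are eIF3 genes that fell in each stress. SUI1 differed by 0.70 ± 0.18 (limma adjusted p = 0.0278) and FUN12 by 0.59 ± 0.16 (limma adjusted p = 0.0284).

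EAP1, which encodes a protein that binds eIF4E and represses cap-dependent translation, had the largest difference of the 5. It read 10.47 and 10.54 in heat, against 9.17 and 9.72 in KCl (1.06 ± 0.22, SE, n = 2 arrays per group, limma adjusted p = 0.013), and 10.11 and 9.92 in untreated cells. Both heat arrays lay above the untreated pair and both KCl arrays below it, although neither stress passed against untreated cells (0.50 ± 0.22 in heat and -0.57 ± 0.22 in KCl). The count of 5 became 3 without untreated a, 3 without untreated b, 3 without the 45 min heat array and 12 without the 45 min KCl array. The median of heat minus KCl over the 50 genes was 0.03, and it was 0.18 without the 30 min heat array and -0.13 without the 45 min heat array.

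Peroxide set directly against heat left 16 of the 50 transcripts higher and none lower (limma), where 10.6% of all genes were higher and 14.8% lower, with a median difference of 0.47 for the 50 genes and -0.07 for all genes. KRS1 read 13.60 and 13.44 in peroxide, against 11.83 and 12.70 in heat (1.26 ± 0.29), and TIF3 read 12.46 and 12.35 in peroxide, against 10.73 and 11.63 in heat (1.23 ± 0.28). TIF4631 (1.22 ± 0.21), ALA1 (1.08 ± 0.25), TEF4 (0.96 ± 0.17) and VAS1 (0.92 ± 0.20) followed. In these 6 genes both peroxide arrays were above both heat arrays, as the rule for naming the largest changes required. The count was 7 without untreated a, 7 without untreated b, 2 without the 30 min heat array, 26 without the 45 min heat array, 2 without the 30 min peroxide array and 1 without the 45 min peroxide array.

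Against KCl, peroxide left 20 of the 50 higher and none lower (limma), where 18.8% of all genes were higher and 23.5% lower, with a median difference of 0.48 for the 50 genes and -0.03 for all genes. The eIF3 and recruitment genes led: TIF35 (1.44 ± 0.15), TIF4631 (1.42 ± 0.21), TIF3 (1.08 ± 0.28) and RPG1 (1.07 ± 0.16), then FUN12 (0.93 ± 0.16) and VAS1 (0.86 ± 0.20). TIF35 read 13.04 and 12.94 in peroxide, against 11.48 and 11.62 in KCl. The count was 11 without untreated a, 11 without untreated b, 12 without the 45 min KCl array and 9 without either peroxide array.

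The lower of the 2 times was 30 min in heat and 45 min in KCl. In heat the 30 min array was below the 45 min array in 44 of the 50 genes, against 41.3% of all genes, and the median ratio to untreated cells was -1.01 and -0.50 at 30 and 45 min for the synthetases and -0.94 and -0.59 for the factors. In KCl the 45 min array was the lower in 42 of the 50, against 49.8% of all genes, with medians of -0.49 and -0.80 for the synthetases and -0.71 and -0.87 for the factors. Of the 20 treated arrays, the lowest value of a gene fell on the 30 min heat array for 26 genes and on the 45 min KCl array for 14. The log2 ratios of all genes had an SD of 1.23 and 1.37 on these arrays. How many of all genes were lowest there was not counted. These time courses have 1 array per point and were not tested.

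Related genes were set side by side. TEF4 and CAM1 both encode gamma subunits of eEF1B. CAM1 read 12.70 and 12.32 in heat and 12.43 and 12.36 in KCl, against 12.33 and 12.29 in untreated cells, and passed in neither stress (0.20 and 0.09), where TEF4 fell in both. Relative to its value in untreated cells, TEF4 minus CAM1 was -1.49 and -0.9996 in heat and -0.46 and -0.83 in KCl, against -0.09 and 0.09 untreated.

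The eIF4G genes showed the widest such gap. TIF4632 read 10.78 and 10.74 in heat and 10.21 and 10.63 in KCl, against 10.78 and 10.61 in untreated cells. On the scale relative to untreated cells, TIF4631 minus TIF4632 was -1.995 and -1.40 in heat and -1.18 and -1.94 in KCl, against -0.09 and 0.09 untreated, and it lay between -0.31 and 0.35 on all 16 other treated arrays. The eIF4E-binding repressors CAF20 and EAP1 differed in heat, where CAF20 fell by 0.87 and EAP1 did not pass (0.50): CAF20 minus EAP1 was -1.41 and -1.31 there, and 0.59 and -0.62 in KCl, against -0.10 and 0.10 untreated.

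Partner subunits had smaller gaps. FRS2 minus FRS1, the alpha and beta subunits of one synthetase, was -0.18 on both heat arrays and -0.43 and -0.42 in KCl, against -0.07 and 0.07 untreated. SUP45 minus SUP35 was -0.08 and -0.38 in heat and 0.05 and 0.25 in KCl, against -0.04 and 0.04 untreated. The differences between the genes of a pair were not tested.

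**Figure D4:**
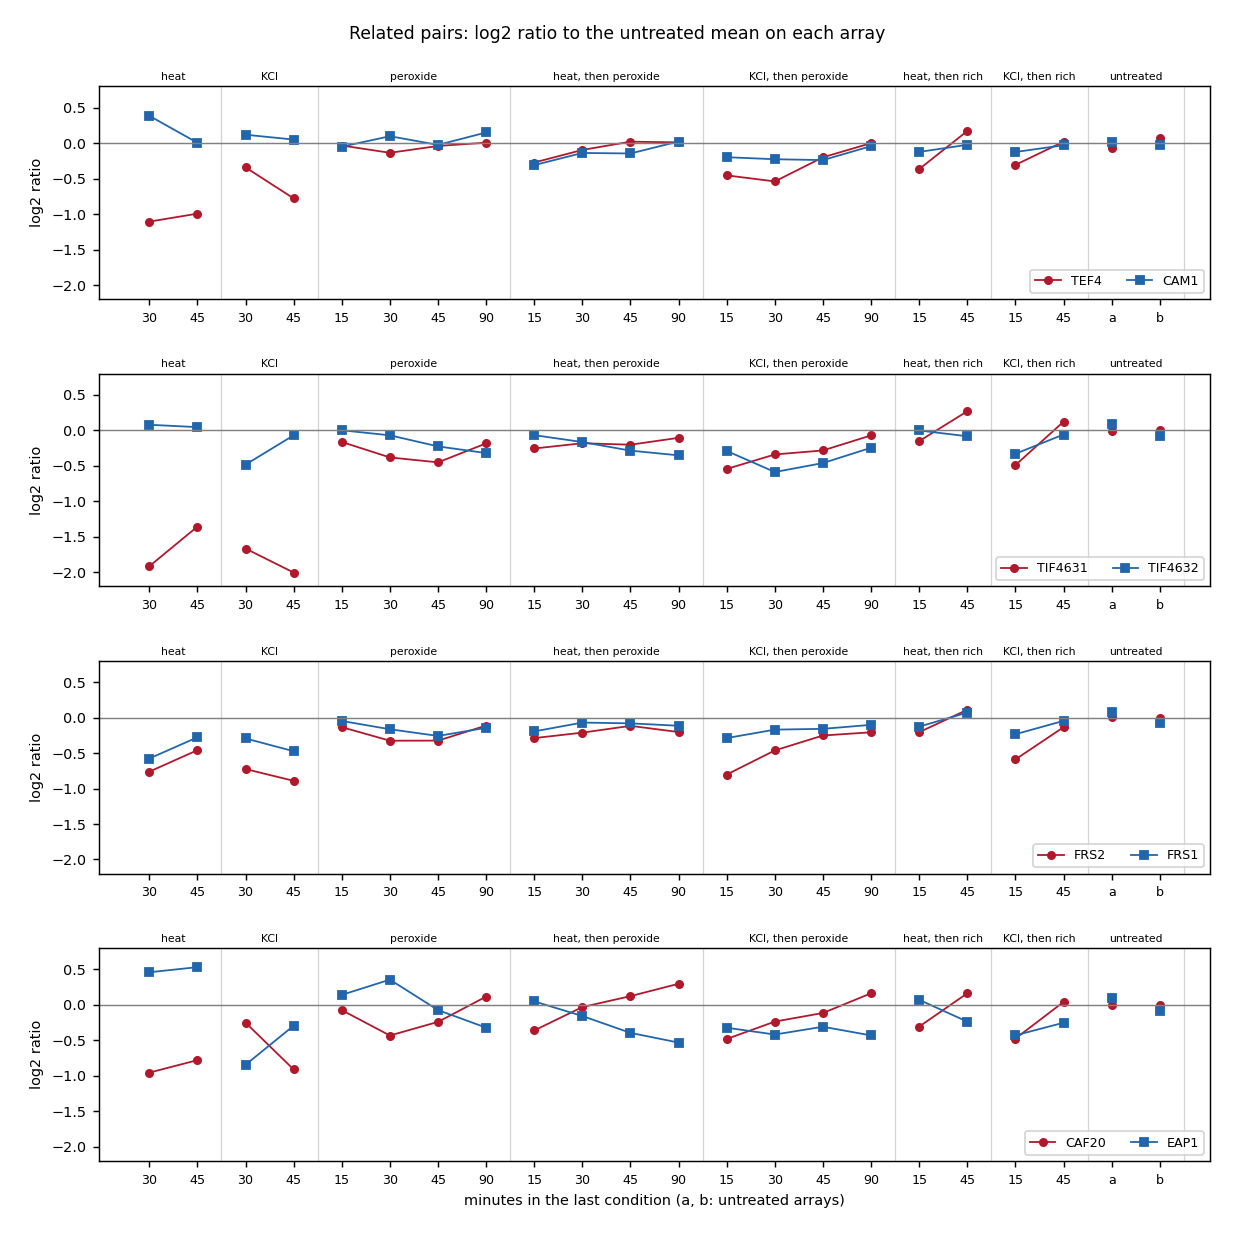
Log2 ratio to the untreated mean (vertical axis) of the genes of 4 related pairs, 1 panel per pair, on each array (horizontal axis, minutes in the last condition, untreated a and b at the end). TIF4631 lies far below TIF4632, and TEF4 below CAM1, on the heat and KCl arrays, while CAF20 is below and EAP1 above 0 on both heat arrays.

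After 45 min of heat or KCl and a move to peroxide or to rich medium, the median of the synthetases was lower at first than that of the factors. At 15 min after the move the median ratio to untreated cells was -0.29 for the synthetases and -0.12 for the factors in heat-primed peroxide. In osmotic-primed peroxide these medians were -0.50 and -0.24. In rich medium it was -0.23 and -0.03 after heat, and -0.47 and -0.19 after KCl. The synthetase median was thus 0.17 to 0.28 below the factor median in all 4 series, whereas in naive peroxide at 15 min both were -0.07. Cytosolic ribosomal protein genes (127) were also below the factors there, with medians of -0.21, -0.28, -0.12 and -0.31 in the same order. Their median in naive peroxide at 15 min was -0.05. For all genes the medians in the 4 series were -0.05, -0.07, -0.03 and -0.09.

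By 45 min after the move the synthetase medians were -0.05 and -0.14 in heat-primed and osmotic-primed peroxide and 0.03 and -0.03 in rich medium after heat and KCl. The 15 min array lay below the 45 min array in 18, 17, 18 and 17 of 18 synthetases in heat-primed peroxide, osmotic-primed peroxide, rich medium after heat and rich medium after KCl. The same held for 25, 21, 27 and 27 of 32 factors. Among all genes the share was 53.5%, 50.9%, 55.1% and 50.7%. WRS1 stood at -0.56, -0.34, -0.21 and -0.14 relative to untreated cells in heat-primed peroxide at 15, 30, 45 and 90 min, and at -0.83, -0.49, -0.39 and -0.29 in osmotic-primed peroxide. ILS1 stood in heat-primed peroxide at -0.58, -0.23, -0.16 and -0.11, and at -0.52, -0.15, -0.12 and -0.11 in osmotic-primed peroxide. Each of these 15 min values was the lowest of its series.

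The primed series were compared with naive peroxide over the 4 matched times to ask whether an earlier stress alters the response to peroxide. For heat-primed minus naive peroxide limma called none of the 50 genes, where 3.34% of all genes were called. At an unadjusted p under 0.05 limma passed 7 of the 50, against 1691 of all 5449 genes. The median difference was 0.03 for the 50 genes and -0.01 for all genes, and it was -0.02 for the 50 genes without the 45 min naive array. The largest differences were those of GCD2 (0.40 ± 0.10, SE, 4 arrays per group, limma adjusted p = 0.051), NIP1 (0.34 ± 0.08, limma adjusted p = 0.0521) and SUP35 (0.27 ± 0.10). On the other side were EAP1 (-0.28 ± 0.12), CAM1 (-0.19 ± 0.07) and GUS1 (-0.17 ± 0.09).

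GCD2 and NIP1 are the genes called lower in naive peroxide at 30 and 45 min, though not in every alternative fit. Relative to untreated cells GCD2 stood at 0.14, -0.20, -0.03 and -0.09 at 15, 30, 45 and 90 min of heat-primed peroxide, against -0.33, -0.85, -0.43 and -0.18 in naive peroxide. NIP1 stood at -0.06, -0.19, -0.06 and -0.03 in heat-primed peroxide, against -0.27, -0.71, -0.48 and -0.25 in naive peroxide. The heat-primed value was the higher at all 4 times in both genes, and the differences missed the threshold. The naive arrays at 30 and 45 min entered both comparisons. The count of genes called became 1 without the 15 min naive array, 2 without the 90 min naive array, 1 without the 90 min heat-primed array and 2 without the 15 min osmotic-primed array.

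For osmotic-primed minus naive peroxide limma again called none of the 50 genes, where 0.147% of all genes were called. At an unadjusted p under 0.05 limma passed 9 of the 50, against 1019 of all 5449 genes. The median difference was -0.06 for the 50 genes, -0.10 for the synthetases and -0.02 for the factors, against -0.01 for all genes (all on the log2 scale). Below 0 were 17 of the 18 synthetases, against 2894 of all 5449 genes. Without the 15 min naive array the median of the 50 genes was 0.0081. EAP1 (-0.40 ± 0.12, limma adjusted p = 0.154), GUS1 (-0.35 ± 0.09, limma adjusted p = 0.123) and TIF11 (-0.34 ± 0.15) had the lowest differences. DED1 (0.29 ± 0.08, limma adjusted p = 0.142), NIP1 (0.25 ± 0.08) and GCD2 (0.24 ± 0.10) had the highest. Both primed comparisons share the naive arrays.

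GUS1 did not pass in any comparison. It stood at 0.13 and -0.01 relative to untreated cells in KCl, and at -0.37, -0.58, -0.35 and -0.07 in osmotic-primed peroxide at 15, 30, 45 and 90 min, against 0.04, 0.00, -0.02 and 0.01 in naive peroxide. In rich medium after KCl it stood at -0.42 and -0.33 at 15 and 45 min. Its values after the move out of KCl were below those in KCl itself, as were those of CAM1, at 0.12 and 0.05 in KCl, -0.20, -0.23, -0.24 and -0.04 in osmotic-primed peroxide and -0.12 and -0.03 in rich medium after KCl. In heat-primed peroxide GUS1 stood at -0.29, -0.20, -0.13 and -0.02. HCR1 stood in heat-primed peroxide at -0.02, 0.31, 0.33 and 0.04, and at -0.05, 0.29, 0.33 and -0.11 in osmotic-primed peroxide, against 0.16, 0.38, 0.37 and 0.16 in naive peroxide, with the higher values at 30 and 45 min in all 3 series. EAP1 stood in heat-primed peroxide at 0.05, -0.16, -0.39 and -0.53, and at -0.32, -0.42, -0.31 and -0.43 in osmotic-primed peroxide, against 0.14, 0.36, -0.07 and -0.32 in naive peroxide.

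**Figure D5:**
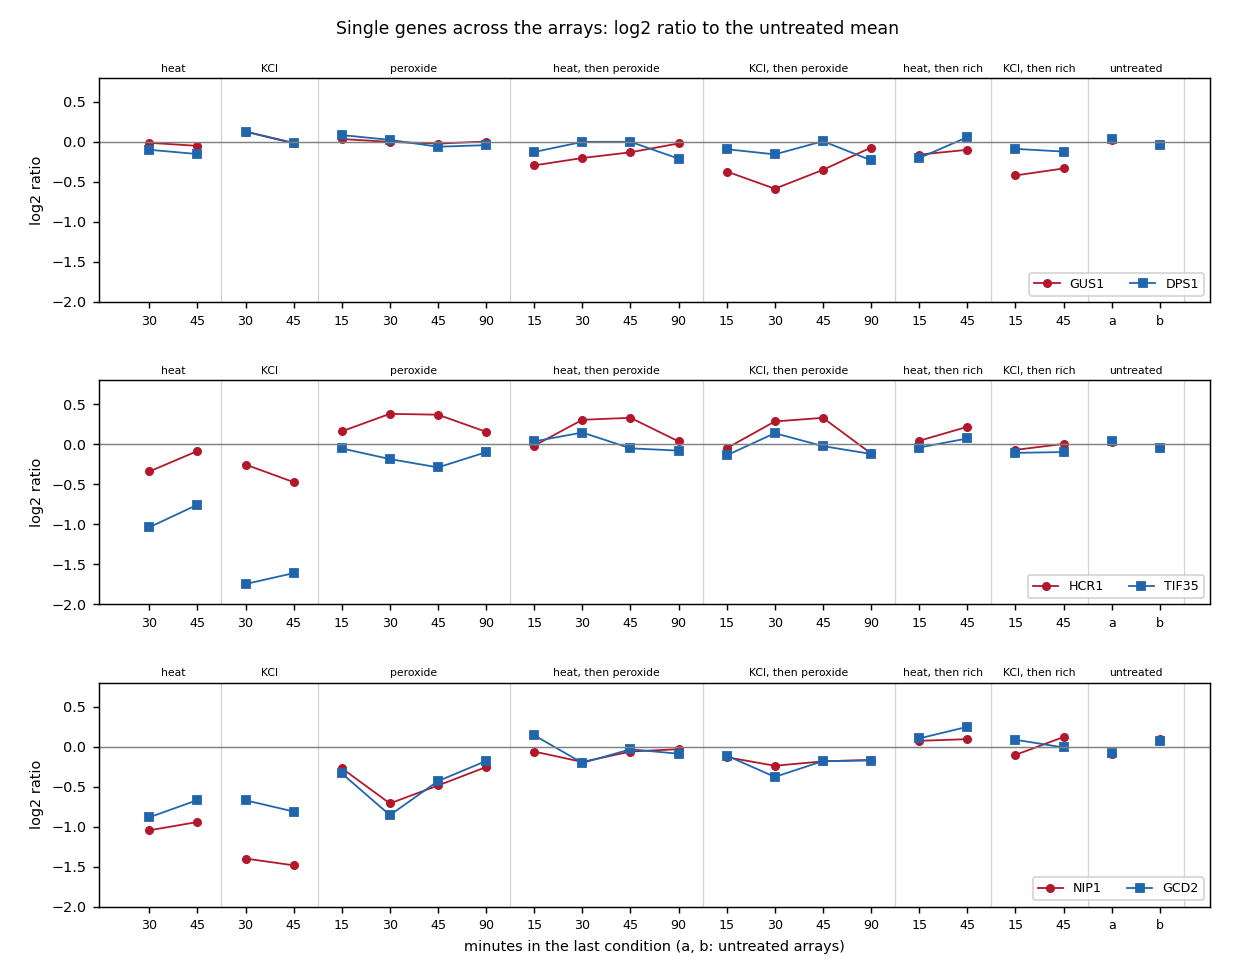
Log2 ratio to the untreated mean (vertical axis) of GUS1 with DPS1, HCR1 with TIF35, and NIP1 with GCD2, 1 panel per pair, on each array (horizontal axis, minutes in the last condition, untreated a and b at the end). GUS1 is lowest in osmotic-primed peroxide at 30 min (-0.58), HCR1 is above 0 in naive peroxide at all 4 times, and NIP1 and GCD2 are lower in naive than in heat-primed peroxide.

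Peroxide was also set against rich medium after the same first stress, at 15 and 45 min. After heat, limma called none of the 50 genes, where 0.165% of all genes were called. At an unadjusted p under 0.05 limma passed 0 of the 50, against 230 of all 5449 genes. The median difference was -0.09 for the 50 genes, of which 45 were below 0. For all genes it was -0.04, with 3214 of 5449 below 0. After KCl, limma called none, where 0.165% of all genes were called. At an unadjusted p under 0.05 limma passed 0 of the 50, against 400 of all 5449 genes. The median was -0.09 for the 50 genes, of which 40 were below 0. For all genes it was 0.02, with 2614 of 5449 below 0. The difference between these effects, after heat minus after KCl, was called for none of the 50 (limma), where 0.0% of all genes were called, and its median was 0.01 (-0.04 to 0.06 with each array left out in turn).

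Rich medium after each stress was set against untreated cells to ask how far the transcripts had come back. After heat limma called none of the 50 genes, where 0.0% of all genes were called. At an unadjusted p under 0.05 limma passed 0 of the 50, against 288 of all 5449 genes. The median difference was -0.04, at -0.11 for the synthetases and 0.00 for the factors. The median of the 50 genes turned to 0.07 when the array at 15 min of rich medium was left out and was -0.14 when that at 45 min was. After KCl limma called none, where 0.0% of all genes were called. At an unadjusted p under 0.05 limma passed 1 of the 50 after KCl, against 405 of all 5449 genes. There the median was -0.16, at -0.25 for the synthetases, all 18 of them below 0, and -0.11 for the factors, against -0.07 for all genes, of which 3406 of 5449 were below 0. The median of the 50 genes was -0.0044 when the array at 15 min of rich medium was left out and -0.31 when that at 45 min was. WRS1 (-0.62 ± 0.26, SE, n = 2 arrays per group, limma adjusted p = 0.687) had the lowest value and GUS1 stood at -0.37 ± 0.12 (limma adjusted p = 0.644). When the array at 45 min of rich medium was left out, limma called 1 of the 50 genes.

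Of 23 other genes of cytosolic translation outside the 50, most differences were below 0: 18 in heat, 19 in KCl and 18 in peroxide. Among all 5449 genes these counts were 2510, 2623 and 2887. Not passing were 14, 13 and 20 of the 23. In heat 7 fell and 2 rose (limma, median difference -0.33), in KCl 8 fell and 2 rose (median -0.31), and in peroxide 2 fell and 1 rose (median -0.12). Of all genes 22.4%, 26.0% and 7.18% fell and 27.5%, 30.2% and 11.2% rose in heat, KCl and peroxide. RLI1, for a ribosome recycling factor, fell in all 3 stresses, by 1.48 in heat, 1.46 in KCl and 1.29 in peroxide. HEF3, a paralog of YEF3 that is little used in rich medium, read 8.19 and 7.66 in heat and 7.94 and 8.44 in KCl, against 6.87 and 6.54 in untreated cells. It rose by 1.22 ± 0.25 in heat and 1.48 ± 0.25 in KCl. DBP1, a paralog of DED1, read 10.26 and 10.36 in KCl and 9.47 and 9.37 in peroxide, against 8.08 and 8.37 untreated. It rose by 2.09 ± 0.21 in KCl and 1.20 ± 0.21 in peroxide. DBP1 also rose in heat (0.97 ± 0.21), a value named after it was seen. YEF3 and DED1 themselves fell or did not pass in each stress.

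ANB1, the gene of an eIF5A isoform known from low oxygen, fell by 1.55 in KCl and 1.73 in peroxide. GCN4, for the activator of amino acid biosynthesis genes whose own translation depends on eIF2, fell in KCl (-0.69 ± 0.13, limma adjusted p = 0.00322) and did not pass in heat (-0.24) or peroxide (-0.18). Of 25 mitochondrial translation genes 12 rose and none fell in heat (median 0.61), 6 rose and 3 fell in KCl (median 0.25), and 3 rose and none fell in peroxide (median 0.40), where 27.5%, 30.2% and 11.2% of all genes rose. Cytosolic ribosomal protein genes (127) had a median of -0.60 in heat and -0.32 in KCl, and ribosome biogenesis genes (84) of -2.35 and -2.89. The medians of the 50 genes, -0.77 in heat and -0.74 in KCl, lay between those of these lists.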

How the data were processed

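The authors deposited log2 expression values per probe set, made with RMA per the submitters' processing notes; its version is not given in the sources used here. RMA gives all arrays a like distribution, so a change in total mRNA per cell does not show. The authors' deposited table of log2 fold changes (5900 probe sets, all 50 genes) served only as an alternative. All columns were used. Of 10928 probe sets 5498 named 1 gene, and the brightest was kept for 47 genes with several, which left 5449; 1746 naming a gene outside the S. cerevisiae gene table, 3683 not annotated and 1 naming several genes were left out. Background was the 95th percentile of the annotated probe sets outside the gene table. The number of arrays limits the precision.

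Each comparison was a contrast in limma 3.58.1 (R 4.3.3) after lmFit and eBayes, and p-values were adjusted by Benjamini-Hochberg over 5449 genes with a threshold of 0.05. The single stresses used 8 arrays with 1 level per group, the peroxide series 12 arrays with group and time, peroxide against rich medium 8 arrays with group and time, and rich medium against untreated cells 6 arrays. Simulated data with known changes were used to test the fits. Genes given in full were up to 6 of the largest changes past the threshold each way, the extremes of each role and 5 related pairs. These largest changes had to have groups that did not overlap, or 1 sign at every matched time. Of the other translation genes, up to 4 of the largest and GCN4 were given. Where none passed, the 3 largest each way were given. The genes, lists and rules were chosen with earlier results of these data known. Alternatives were other normalizations, filters, variance models, a minimum fold, sets of arrays, shared times as a block (added after the data were seen), the authors' table and each array left out. A planned motif search in promoters was not run, since no sequence was used here.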

Additional observations from a re-analysis of the deposited data

Results flagged for a closer look

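In 156 series of 4 arrays (each gene and the median of each of the 2 classes, in each of the 3 peroxide series), 3 held 1 array far from the others, where chance flags about 1 in 20. All 3 lay in osmotic-primed peroxide, as log2 ratios to the untreated mean. ILS1, the isoleucine synthetase gene, was at -0.52 at 15 min, with the other times between -0.15 and -0.11. TYS1, the tyrosine synthetase gene, was at -0.47 at 15 min, with the others between -0.26 and -0.23. GCN3, the alpha subunit gene of eIF2B, was at -0.64 at 30 min, with the others between -0.03 and 0.04. These are times of a series and not repeats.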

How the results depend on the processing

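The labels give no replicate numbers, so arrays were paired by time only. With the shared times as a block, chosen after seeing the data, the single stresses gave 40 genes called of the 50 in heat, 33 in KCl, 1 in peroxide, 5 in heat minus KCl, 12 in peroxide minus heat and 16 in peroxide minus KCl, and rich medium against untreated cells gave 0 after either stress. With a minimum of 1.5-fold in the test, the genes called of the 50 were 3 in heat, 7 in KCl, 0 in peroxide, 0 in heat minus KCl, 0 in peroxide minus heat and 2 in peroxide minus KCl. With all 22 arrays in 1 fit they were 0 in peroxide and 9 in heat minus KCl. They were 34 in peroxide minus heat and 36 in peroxide minus KCl. That fit also put the 15 and 90 min arrays into the naive peroxide group. The median ratios of the 50 genes to untreated cells on these arrays were -0.07 and -0.08. Its peroxide counts thus belong to a different contrast from the one at the shared times. The share of all genes called in that fit is not given here. A second quantile normalization gave 1 in peroxide and 2 in heat-primed minus naive, and the authors' deposited table gave 1 and 2. Leaving out the dimmest 25% of genes, or eBayes with a trend and robust variances, gave 2 in heat-primed minus naive.

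With each array left out in turn, the count ran from 14 to 42 in heat (median -0.95 to -0.58), 21 to 36 in KCl, 0 to 3 in peroxide, 3 to 12 in heat minus KCl (median -0.13 to 0.18), 1 to 26 in peroxide minus heat (median 0.33 to 0.67), 9 to 24 in peroxide minus KCl, 0 to 2 in heat-primed minus naive and 0 to 1 in rich medium after KCl. The median of peroxide minus rich medium after KCl ran from -0.13 to -0.027, that of rich medium after heat minus untreated from -0.14 to 0.07 and that after KCl from -0.31 to -0.0044. Over the genes called one by one, 1605 repeats under these alternatives kept direction and threshold, 367 lost the threshold and 0 reversed. For naive peroxide, the repeats with all 22 arrays in 1 fit used more times than the main comparison. Part of these 1605 and 367 repeats could not have reversed. Averaging a gene's probe sets left the 50 genes as they were, since each has 1 probe set. The variance models, the minimum fold and the filter of dim genes kept each difference and changed only its p-value. In the single stresses, leaving out an array left 1 array in its group, which lowers the precision for every gene. The cause of the losses was not tested.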
